A study of Mus musculus with 6 samples.

Results

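The genes described here are 9 genes of the tight junction, measured by RNA sequencing in mouse brain microvascular endothelial cells (BMVECs): the claudins Cldn1, Cldn5 and Cldn12, occludin (Ocln), tricellulin (Marveld2), ZO-1 (Tjp1) and the junctional adhesion molecules F11r (JAM-A), Jam2 (JAM-B) and Jam3 (JAM-C). They were chosen by symbol, and each symbol matched 1 row of the 54532 genes in the deposited table. All 9 passed the filter on low values, which required 0.5 FPKM or more in 3 or more of the 6 libraries and left 12618 genes. FPKM is the number of fragments scaled to gene length and library depth, so levels can be compared between genes.

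The treated group consisted of 3 libraries of BMVECs exposed to DEVD mIL-36β, a form of the IL-1 family cytokine IL-36β, at 100 ng/ml for 24 h. The other group consisted of 3 libraries of untreated BMVECs, for which the titles give neither a time nor a vehicle, so time in culture and IL-36β cannot be told apart. All cells were primary cultures of wild-type C57BL/6J brain vessel fragments, selected with puromycin and grown to confluence on collagen IV and fibronectin. Neither the age of the mice nor the number of animals or cultures behind a group is given in the labels. The p-values therefore measure only how these libraries vary, which may be technical variation. The library names carry letters, A, D and E for IL-36β replicates 1 to 3 and A, B and D for untreated replicates 1 to 3. In full the names are A24, D24 and E24 with IL-36β and A0, B0 and D0 for untreated cells. Earlier results of these data had shown a difference between A or B libraries and D or E libraries. For the 9 genes, values inside each of these library sets are therefore given beside the results. Among the A and B libraries only IL-36β replicate 1 was treated, and among the D and E libraries only untreated replicate 3 was untreated. A fold inside a set therefore has no replicate on 1 side.

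Tight junctions seal the cleft between neighbouring cells. Claudins are membrane proteins that pair across the cleft and form its strands, occludin and tricellulin are related proteins of the same strands, ZO-1 anchors them to actin from the cytoplasmic side, and the junctional adhesion molecules are immunoglobulin-type proteins that also take part in leukocyte passage. In brain endothelium these junctions restrict leakage between cells, and claudin-5 is the claudin that endothelium of the blood-brain barrier is best known for.

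The 250 bases before the start of Cldn5, Cldn1 and F11r are shown because these were the 3 genes with an unadjusted p under 0.05 between the groups. They are from RefSeq on GRCm38.p6, each on its gene's strand, 5′ to 3′, and lie at chr16:18776597-18776846 (plus strand) for Cldn5, chr16:26371840-26372089 (minus strand) for Cldn1 and chr1:171437311-171437560 (plus strand) for F11r. The RefSeq starts differ from the gene coordinates given below, so the last bases of the F11r and Cldn1 windows lie inside those coordinates. Capitals mark the CCAAT box and the GC box letters GGGCGG on either strand.
Cldn5: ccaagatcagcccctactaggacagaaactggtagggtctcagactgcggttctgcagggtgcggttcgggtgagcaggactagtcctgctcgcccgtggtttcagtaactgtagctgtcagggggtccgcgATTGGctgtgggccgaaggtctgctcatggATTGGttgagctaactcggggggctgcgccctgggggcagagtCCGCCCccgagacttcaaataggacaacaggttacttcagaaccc
Cldn1: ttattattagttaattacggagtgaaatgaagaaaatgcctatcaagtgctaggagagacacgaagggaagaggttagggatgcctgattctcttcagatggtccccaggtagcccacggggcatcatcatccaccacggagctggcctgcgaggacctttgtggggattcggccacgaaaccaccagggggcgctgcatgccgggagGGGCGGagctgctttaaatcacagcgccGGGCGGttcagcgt
F11r: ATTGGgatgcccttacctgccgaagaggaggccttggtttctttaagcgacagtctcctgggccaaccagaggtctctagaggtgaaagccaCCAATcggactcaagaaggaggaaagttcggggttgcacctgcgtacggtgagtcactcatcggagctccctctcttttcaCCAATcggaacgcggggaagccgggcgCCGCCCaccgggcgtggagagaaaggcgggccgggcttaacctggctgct
The Cldn5 window held 2 matches to CCAAT and 1 to GGGCGG, the Cldn1 window 2 to GGGCGG, and the F11r window 3 to CCAAT and 1 to GGGCGG. Windows were found for 7 of the 9 genes, 11 in all because some genes have several starts whose windows overlap, and GGGCGG was present in 10 of the 11. Among all 32851 windows of this length GGGCGG was present in 32.7% and CCAAT in 33.8%. The 11 windows held 42.0 to 69.2% G and C, against a median of 52.4% over all windows. Also searched on both strands were the TATA box letters TATAAA, present in 12.4% of all windows, and the ETS-type letters AGGAAG, present in 29.5%. A second ETS-type motif, CGGAAG, was present in 13.6% and the NF-κB consensus in 3.90%. No matches overlapped. None of these other motifs was present in the 3 windows printed, which says nothing about the binding of any factor.

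The libraries held 15180389 to 19544689 reads assigned to genes. The 10 endothelial marker genes were all measured, with summed levels of 2300 to 2734 FPKM in IL-36β libraries and 2240 to 2573 FPKM in untreated libraries. Of 6 markers of brain endothelium 5 were measured, led by Slc2a1 (170 to 377 FPKM) and Abcb1a (44.9 to 59.1 FPKM). Mfsd2a, Slco1a4 and Lef1 were at or under 2.44, 2.12 and 2.09 FPKM in every library. Slco1c1, a thyroid hormone transporter of brain endothelium, was at or under 0.373 FPKM in every library. Smooth muscle markers were also present, led by Acta2, with sums of 372 to 823 FPKM in IL-36β libraries and 417 to 1395 FPKM in untreated libraries. None of the markers was called by limma (0.182% of all genes tested). DESeq2 called 3 as lower with IL-36β, where it called 0.793% of all genes tested as lower. These were Slco1a4 of brain endothelium, an organic anion transporter gene, and Myh11 and Cnn1 of smooth muscle (DESeq2 adjusted p = 0.00447 and 0.0152). The fold of Slco1a4 was 0.348 in DESeq2 (adjusted p = 1.58e-05) and 0.489 in limma (adjusted p = 0.131). The part of these cells in the values below was not tested. Markers of the other cell types were low, with sums over 6 pericyte markers of at most 5.34 FPKM, 5 fibroblast markers of at most 2.88 FPKM and 4 astrocyte markers of at most 1.70 FPKM. The sums for oligodendrocytes, microglia and leukocytes, neurons, and epithelium with choroid plexus were at most 0.266, 0.305, 0.155 and 0.141 FPKM in any library. Aqp4 and Slc1a3 of astrocytes, Snap25 of neurons, and Krt5 and Krt14 of epithelium had no read. In these bulk libraries, fewer cells of a type and less RNA per cell cannot be told apart.

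With IL-36β the levels of most tight junction genes differed little from those of untreated cells, and the largest differences were in 2 claudins with opposite directions. Cldn5 averaged 267 ± 85.4 FPKM with IL-36β and 157 ± 20.9 FPKM without, and Cldn1 averaged 9.39 ± 4.96 FPKM with IL-36β and 17.0 ± 4.34 FPKM without (SD, n = 3 each). F11r averaged 122 ± 3.81 FPKM with IL-36β and 99.9 ± 4.03 FPKM without (SD, n = 3 each). None of the 9 passed the threshold of an adjusted p under 0.05 over all genes tested (limma on log2(FPKM + 0.5), Benjamini-Hochberg), where 0.182% of all genes tested were called, 0.166% higher and 0.0159% lower with IL-36β. At an unadjusted p under 0.05 there were 3 of the 9, Cldn5 and F11r higher and Cldn1 lower, beside 10.4% of all genes tested, 5.96% higher and 4.41% lower. By other tools, edgeR's quasi-likelihood test on recovered reads called 0 of the 9 (0.293% of all genes, 0.262% higher and 0.0317% lower), limma with the library set as a term 0 (0.808%, 0.674% higher and 0.135% lower), and DESeq2 on recovered reads 1, Cldn5, as higher (2.06%, 1.27% higher and 0.793% lower). The libraries of the groups did not overlap in 1 of the 9, F11r, which was higher with IL-36β, while this was so for 16.2% of all genes tested, 8.95% higher and 7.24% lower. Fold changes below are IL-36β over untreated and were computed from log2(FPKM + 0.5), so those of low genes are understated. The median log2 fold change of the 9 was -0.0081, beside 0.0023 over all genes tested.

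**Figure D1:**
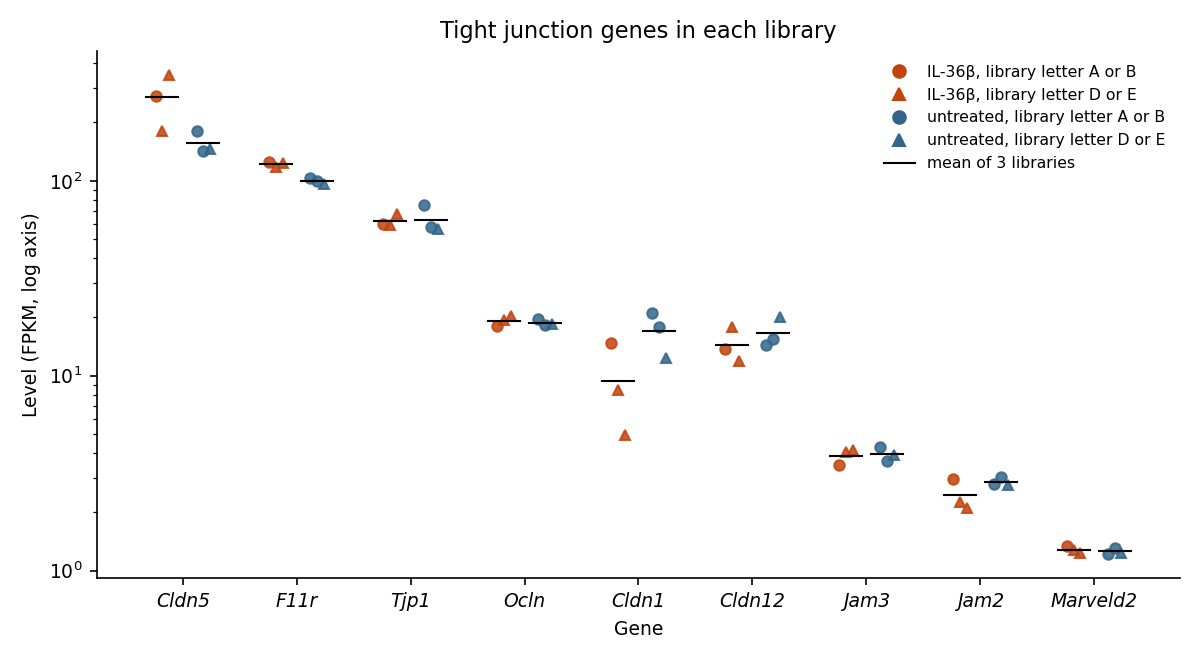
Level of each gene in every library, in FPKM on a log axis, with IL-36β left of untreated; circles are libraries lettered A or B, triangles those lettered D or E, and bars are means of 3 libraries. Cldn5 and F11r lead in both groups, at means of 267 and 122 FPKM with IL-36β, and Marveld2 is lowest at 1.28 FPKM.

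The order of levels was nearly the same in both groups. With IL-36β it ran Cldn5, F11r, Tjp1, Ocln, Cldn12, Cldn1, Jam3, Jam2 and Marveld2, and the ranges of neighbours overlapped only between Cldn12 and Cldn1. In untreated cells Cldn1 stood before Cldn12, and the ranges of Ocln and Cldn1, and of Cldn1 and Cldn12, overlapped. Every other pair of neighbours was separate in all libraries of the group. The mean levels spanned 1.28 FPKM for Marveld2 to 267 FPKM for Cldn5 with IL-36β, and 1.25 to 157 FPKM in untreated cells.

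Among the claudins, Cldn5 (chromosome 16, 18776847 to 18778262, plus strand, GRCm38), a gene with 1 exon, stood at 273, 179 and 349.9 FPKM in IL-36β replicates 1 to 3 and at 181, 143 and 146 FPKM in untreated replicates 1 to 3. IL-36β replicate 2 lay just under untreated replicate 1, and the other IL-36β libraries were above every untreated one. The fold was 1.65 (95% confidence interval 1.12 to 2.43), and the adjusted p by limma was 0.378. Between the A libraries Cldn5 was 1.51 times as high with IL-36β, and between the D libraries 1.23 times. The fold was 1.70 among the A and B libraries and 1.71 among the D and E libraries, and with the set as a term it was 1.70 (1.12 to 2.59; limma adjusted p = 0.276). DESeq2 gave a fold of 1.70 and an adjusted p of 0.0222 for Cldn5. This call was lost without IL-36β replicate 1 (DESeq2 adjusted p = 0.112, fold 1.68), untreated replicate 2 (0.391, fold 1.63) or untreated replicate 3 (0.133, fold 1.64), and with the set as a term (0.255, fold 1.74). It was also lost without IL-36β replicate 3, where the fold was 1.44 (DESeq2 adjusted p = 0.365). It was kept without IL-36β replicate 2 (DESeq2 adjusted p = 1.27e-05, fold 1.98) or untreated replicate 1 (0.0376, fold 1.84). Over all genes these refits called 435 with the set as a term and 102 to 388 without 1 library, against 260 over all libraries. These DESeq2 refits were chosen after the data were examined.

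The IL-36β libraries also differed more among themselves in Cldn5 than the untreated ones did, with a coefficient of variation of 31.9% and 13.4%; this difference in spread was not tested. Set against Cdh5, the VE-cadherin gene, Cldn5 was 0.293, 0.207 and 0.311 of the Cdh5 level in IL-36β replicates 1 to 3 and 0.169, 0.159 and 0.162 in untreated replicates 1 to 3. In this ratio of FPKM the groups did not overlap, which depends on the choice of Cdh5. Against Esam, Emcn or Tek, also endothelial markers, they overlapped, while against the rest of that list they did not. For Esam, IL-36β replicate 2 stood at 383 FPKM and untreated replicate 1 at 342 FPKM. The ratio to Cdh5 was chosen after the values were seen and has no test.

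Cldn1 (chromosome 16, 26356642 to 26371841, minus strand), which encodes the claudin best known from epithelia, stood at 14.8, 8.44 and 4.97 FPKM in IL-36β replicates 1 to 3 and at 21.0, 17.7 and 12.4 FPKM in untreated replicates 1 to 3. The groups overlapped, since IL-36β replicate 1 was above untreated replicate 3. The fold was 0.53 (0.29 to 0.95; limma adjusted p = 0.451), from 2219 reads in the IL-36β and 4311 reads in the untreated libraries. Cldn1 was 0.703 times as high with IL-36β between the A libraries and 0.681 times between the D libraries. Its fold was 0.77 among the A and B libraries and 0.54 among the D and E libraries.

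Cldn1 was also lower in the D or E than in the A or B libraries, with a fold of 0.547, but this difference was not called (limma adjusted p = 0.120). With the set as a term its IL-36β fold was 0.65 (0.45 to 0.93; limma adjusted p = 0.298). DESeq2 did not call it over all libraries (adjusted p = 0.563). It did so with the set as a term (adjusted p = 0.0342, fold 0.641) and without IL-36β replicate 1 (DESeq2 adjusted p = 1.84e-04, fold 0.391), refits that called 435 and 307 of all genes tested. The summed brain endothelial markers were likewise highest in the A and B libraries. The sums were 370, 228 and 244 FPKM in IL-36β replicates 1 to 3 and 416, 435 and 279 FPKM in untreated replicates 1 to 3. These sums were mostly the glucose transporter gene Slc2a1, and the markers did not share 1 direction. Slc2a1, Mfsd2a and Lef1 were lower in the D or E libraries, with folds of 0.571, 0.713 and 0.794. Abcb1a went the other way, at 44.9 to 52.3 FPKM in A and B libraries and 53.2 to 59.1 FPKM in D and E libraries. Slco1a4 was also higher in the D or E libraries by its fold. Between IL-36β and untreated cells, no marker of that list was called by limma. DESeq2 called 1, Slco1a4, as lower, where it called 0.793% of all genes tested as lower. The part of these markers in the Cldn1 values was not tested. Reads of epithelial marker genes were near 0, with a sum over 6 markers of at most 0.141 FPKM in IL-36β libraries and 0.0672 FPKM in untreated libraries.

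Cldn12 (chromosome 5, 5489537 to 5514958, minus strand), another claudin found in brain endothelium, stood at 13.7, 17.7 and 11.9 FPKM in IL-36β libraries and at 14.4, 15.5 and 19.95 FPKM in untreated libraries. The groups overlapped widely, and the highest library of each group was the one lettered D. The fold was 0.87 (0.66 to 1.16; limma adjusted p = 0.713), with 0.92 among the A and B libraries and 0.73 among the D and E libraries.

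The make-up of claudin transcripts was also set out by library. Cldn5 accounted for 88.8%, 85.1% and 93.4% of the summed FPKM of all claudin genes in IL-36β replicates 1 to 3, and for 81.5%, 78.9% and 80.1% in untreated replicates 1 to 3. The share of Cldn1 was 4.80%, 4.00% and 1.33% with IL-36β and 9.47%, 9.77% and 6.80% in untreated cells. Cldn5 was 18.5, 21.2 and 70.3 times the level of Cldn1 in IL-36β libraries and 8.61, 8.07 and 11.8 times in untreated libraries. The groups did not overlap in any of these 3 measures, which were chosen after the values were seen and have no test. The 3 measures rest on the same Cldn5 and Cldn1 values. The groups overlapped in the share of Cldn12, at 4.47%, 8.41% and 3.17% with IL-36β and 6.50%, 8.54% and 10.9% in untreated cells. They also overlapped in Cldn5 over Cldn12, at 19.9, 10.1 and 29.4 with IL-36β and 12.5, 9.24 and 7.33 in untreated libraries.

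**Figure D2:**
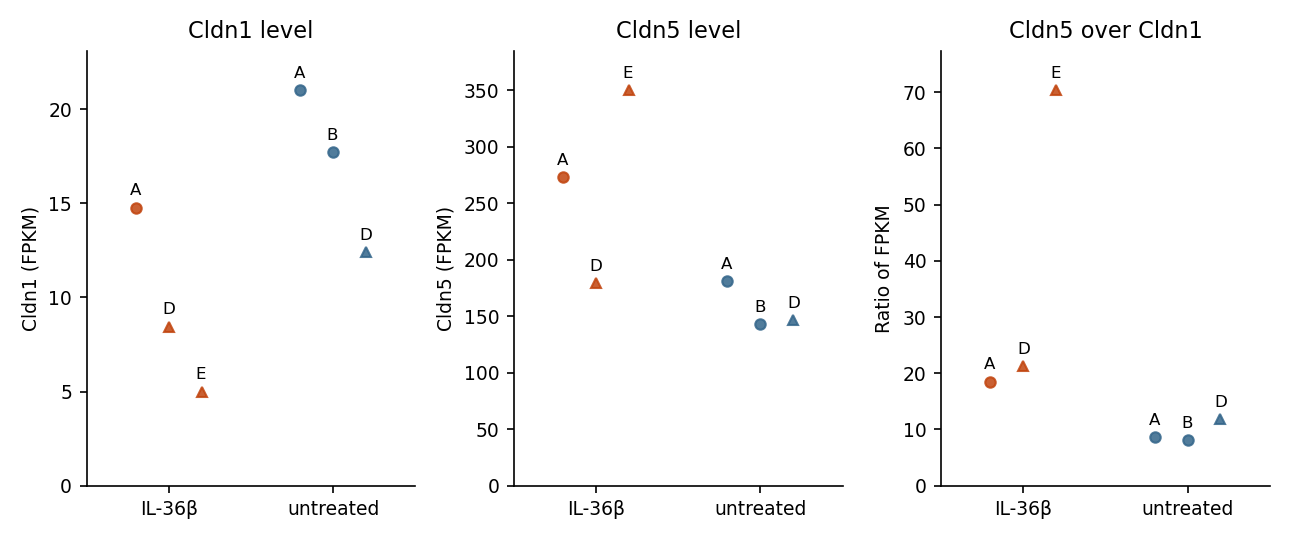
Cldn1 and Cldn5 levels in FPKM and the ratio of their FPKM in each library, with IL-36β left of untreated and the library letter above each point. The ratio lies between 18.5 and 70.3 in IL-36β libraries and between 8.07 and 11.8 in untreated libraries, and library E of the IL-36β group has the highest Cldn5 and the lowest Cldn1.

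The rest of the claudin family was sparse. Of 30 claudin genes beyond these 3, 16 had no read in any library and 4 passed the filter, namely Cldn3, Cldn4, Cldn6 and Cldn34c1. Cldn6 was the most abundant of them, at means of 3.10 FPKM with IL-36β and 2.78 FPKM in untreated cells. Cldn11, a claudin of oligodendrocytes, had no read in any library, where a count of 0 allows up to 3 reads per group, for counting error only.

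The MARVEL-domain genes lie 43238 bases apart on chromosome 13 and differed little between the groups. Ocln (100496507 to 100552718, minus strand) stood at 18.0, 19.3 and 20.2 FPKM with IL-36β and at 19.6, 18.3 and 18.4 FPKM in untreated libraries. Its fold was 1.02 (0.89 to 1.17; limma adjusted p = 0.926). Marveld2 (100595957 to 100616971, minus strand), whose protein sits at the corners where several cells meet, stood at 1.33, 1.28 and 1.24 FPKM with IL-36β and at 1.22, 1.31 and 1.23 FPKM in untreated libraries. Its fold was 1.02 (0.83 to 1.25; limma adjusted p = 0.964), from 217 reads in the IL-36β and 221 reads in the untreated libraries. Among the A and B libraries the folds were 0.95 for Ocln and 1.04 for Marveld2, and among the D and E libraries they were 1.07 for Ocln and 1.01 for Marveld2. Ocln was 13.5, 15.1 and 16.3 times the level of Marveld2 in IL-36β libraries and 16.0, 13.9 and 15.0 times in untreated libraries.

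The scaffold gene Tjp1 (chromosome 7, 65296165 to 65527781, minus strand), with up to 28 exons per transcript in GENCODE M21, stood at 59.9, 59.6 and 67.7 FPKM with IL-36β and at 75.3, 57.8 and 56.5 FPKM in untreated libraries. The groups overlapped, since untreated replicate 1 was the highest of all, while the other untreated libraries were below every IL-36β library. The fold was 0.99 (0.80 to 1.23; limma adjusted p = 0.989). It was 0.91 among the A and B libraries and 1.12 among the D and E libraries.

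The libraries of the groups did not overlap for F11r, 1 of the 9 genes, a share near the 16.2% of all genes tested (8.95% higher). F11r (chromosome 1, 171437535 to 171464603, plus strand) encodes JAM-A, a homophilic adhesion protein that also binds the leukocyte integrin LFA-1. Its level was 125, 118 and 123 FPKM in IL-36β replicates 1 to 3 and 104, 100.0 and 95.8 FPKM in untreated replicates 1 to 3. The fold was 1.22 (1.06 to 1.40; limma adjusted p = 0.346). F11r was 1.20 times as high with IL-36β between the A libraries and 1.23 times between the D libraries. Its fold was 1.23 among the A and B libraries, 1.25 among the D and E libraries, and 1.24 with the set as a term (1.08 to 1.42; limma adjusted p = 0.195). Its coefficient of variation was 3.13% with IL-36β and 4.03% in untreated cells. With quantile normalization its log2 fold change was 0.13, against 0.28 on the deposited scale.

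The other junctional adhesion molecules were far lower. Jam2 (chromosome 16, 84774123 to 84825928, plus strand), whose protein binds JAM-C on other cells, stood at 2.95, 2.25 and 2.10 FPKM with IL-36β and at 2.79, 3.04 and 2.75 FPKM in untreated libraries. IL-36β replicates 2 and 3 were below every untreated library, while IL-36β replicate 1 was within their range. The fold was 0.87 (0.69 to 1.09; limma adjusted p = 0.629), and it was 1.01 among the A and B libraries and 0.82 among the D and E libraries.

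Jam3 (chromosome 9, 27097384 to 27155421, minus strand) stood at 3.48, 4.07 and 4.14 FPKM with IL-36β and at 4.31, 3.67 and 3.92 FPKM in untreated libraries. The groups overlapped, and the fold was 0.98 (0.82 to 1.18; limma adjusted p = 0.959), with 0.89 among the A and B libraries and 1.04 among the D and E libraries. Jam3 shares 1159 exonic bases with the antisense gene Gm48796, which was at or under 0.112 FPKM in every library; whether reads were counted by strand is not stated, so reads of this stretch could belong to either. F11r made up 95.1%, 94.9% and 95.2% of the summed FPKM of these 3 genes in IL-36β replicates 1 to 3 and 93.6%, 93.7% and 93.5% in untreated replicates 1 to 3.

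**Figure D3:**
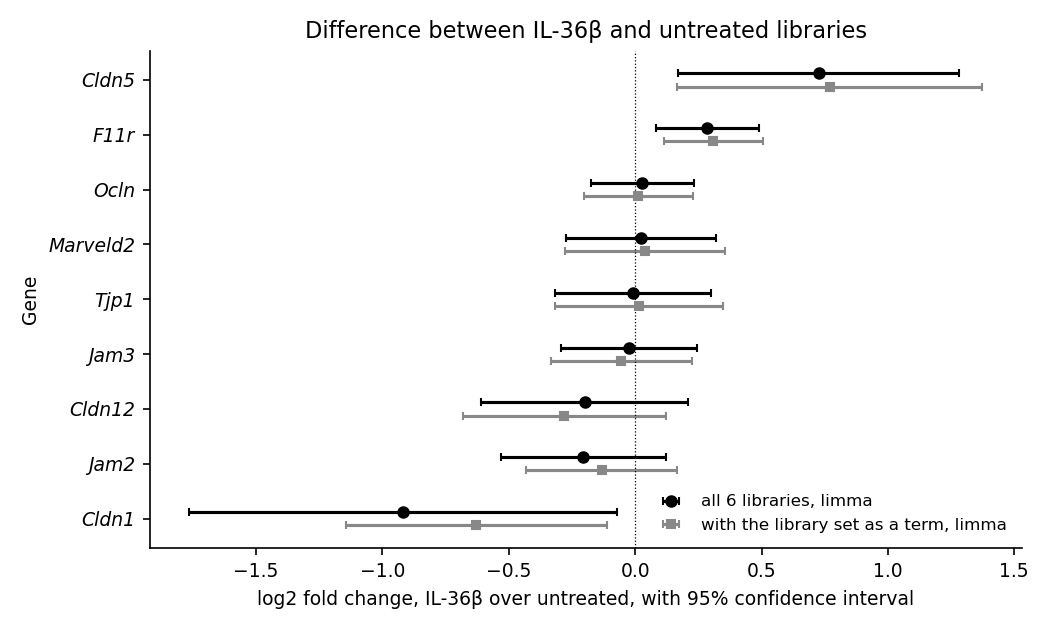
log2 fold change of IL-36β over untreated for each of the 9 genes with its 95% confidence interval, from limma over all 6 libraries (black circles) and with the library set as a term (grey squares). The intervals of Cldn5, F11r and Cldn1 leave out 0 in both fits, but none of the 9 genes has an adjusted p under 0.05 over all genes.

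A wider list of 59 other tight junction genes, with scaffold, polarity and signalling proteins of the junction, served as context; all 59 were in the table and 31 passed the filter. None of the 31 was called by limma (0.182% of all genes tested), by edgeR (0.293%), or when limma had the library set as a term (0.808%). DESeq2 called 1, Amot, as lower, where it called 0.793% of all genes tested as lower. The libraries of the groups did not overlap in 4 genes higher and 4 lower of the 31, beside 8.95% and 7.24% of all genes tested. At an unadjusted p under 0.05 limma had 2 higher (5.96% of all genes tested were so) and 4 lower (4.41% of all genes tested). Their median log2 fold change was 0.05, with 17 above 0 and 14 below, beside 6366 above and 6252 below among all genes tested.

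Amot, which encodes angiomotin, a scaffold of the junction that also binds YAP, stood at 5.34, 5.48 and 3.50 FPKM with IL-36β and at 8.22, 8.73 and 6.75 FPKM in untreated libraries. The groups did not overlap, as was so for 7.24% of all genes tested in this direction, and the fold was 0.62 (0.46 to 0.83; limma adjusted p = 0.264, DESeq2 adjusted p = 0.0130). The polarity genes Mpp5, which encodes PALS1, and Prkci, which encodes an atypical protein kinase C, had folds of 0.77 (0.63 to 0.95) and 0.78 (0.63 to 0.96), with limma adjusted p of 0.399 and 0.407. Arhgef11 and Arhgef2, activators of the small GTPase RhoA, had folds of 0.83 (0.69 to 0.997) and 1.15 (1.01 to 1.32), with limma adjusted p of 0.477 and 0.453. Cldn4, a claudin of epithelia, had a fold of 1.91 (1.04 to 3.51; limma adjusted p = 0.455), from 110 reads in IL-36β libraries, mostly in replicate 3, and 32 reads in untreated libraries. On the recovered reads its fold was 3.58 in DESeq2 (adjusted p = 0.173) and 3.52 in edgeR (adjusted p = 0.368). The most abundant members of the list were Esam, an endothelial adhesion molecule that is also among the endothelial markers above, Cgnl1, which encodes paracingulin, and Ybx3, a transcription factor that binds ZO-1. Esam averaged 395 ± 50.8 FPKM with IL-36β and 339 ± 7.53 FPKM without, and Cgnl1 averaged 102 ± 13.6 FPKM with IL-36β and 91.5 ± 4.58 FPKM without (SD, n = 3 each). Ybx3 averaged 92.2 ± 3.39 FPKM with IL-36β and 88.0 ± 11.7 FPKM without (SD, n = 3 each).

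**Figure D4:**
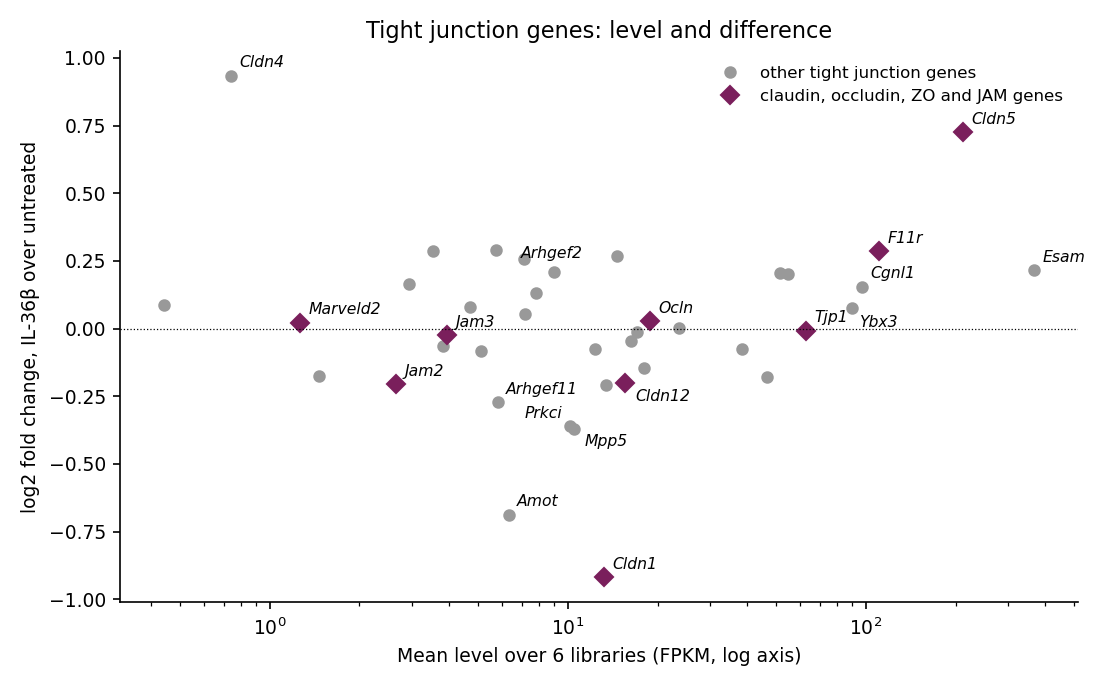
Mean level over 6 libraries, in FPKM on a log axis, against the log2 fold change of IL-36β over untreated, for the 9 genes (diamonds) and the 31 other tight junction genes measured (circles). Cldn5 and Cldn1 stand apart from the other abundant genes at 0.73 and -0.92, and the median of the 31 is 0.05.

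The pattern across libraries was compared with that of 10057 other measured genes by the root mean square difference of log2(FPKM + 0.5), each gene centred on its own mean over the 6 libraries. The 3 genes most like Cldn5 were Chst7, a carbohydrate sulfotransferase gene, at a difference of 0.067, Adora2a, an adenosine receptor gene, at 0.085, and Rasip1, an endothelial Ras-interacting protein gene, at 0.10, where Cldn5 itself varied by 0.47 around its mean. Rasip1 stood at 45.7, 34.6 and 74.1 FPKM with IL-36β and at 32.4, 25.9 and 27.6 FPKM in untreated libraries. As with Cldn5, its highest library was IL-36β replicate 3. Among the genes most like Cldn1 were Fas, a death receptor gene, at 0.15, and Defb1, a beta-defensin gene, at 0.21, where Cldn1 itself varied by 0.66. Fas stood at 6.40, 3.44 and 2.14 FPKM with IL-36β and at 7.42, 8.58 and 5.96 FPKM in untreated libraries. With 6 libraries and this many genes some genes are always close, so these are descriptions only.

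**Figure D5:**
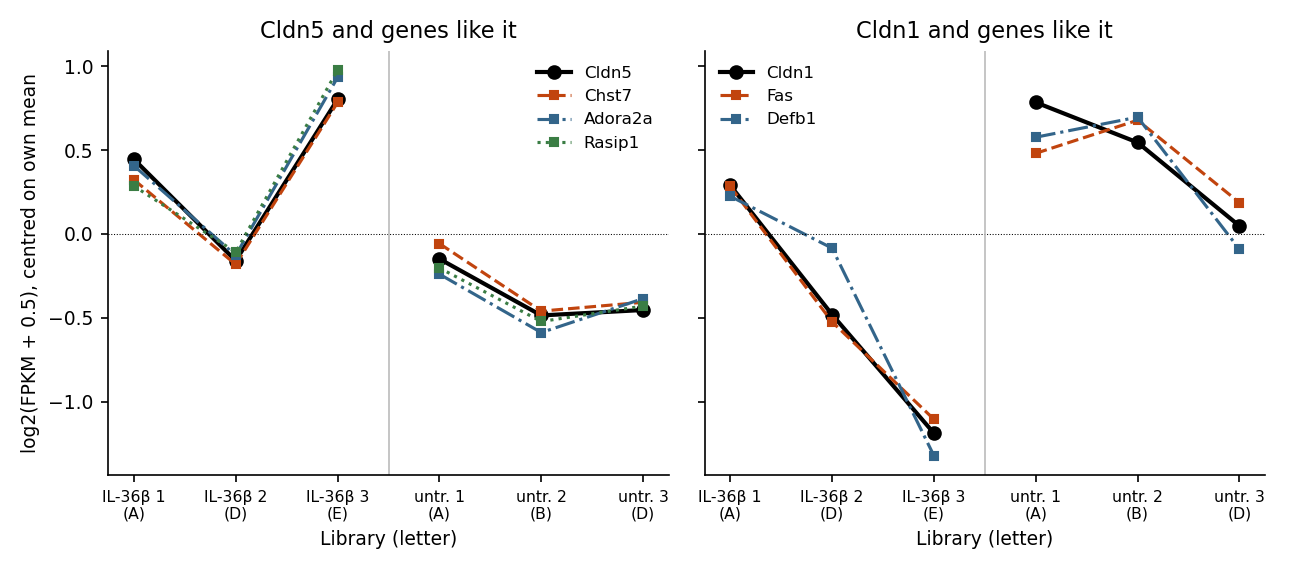
log2(FPKM + 0.5) of Cldn5 (left) with Chst7, Adora2a and Rasip1 and of Cldn1 (right) with Fas and Defb1, centred on each gene's own mean, in the 6 libraries with IL-36β on the left; lines join the libraries of a group only to guide the eye. In both panels IL-36β replicate 3, lettered E, is the extreme library, the highest for Cldn5 and the lowest for Cldn1.

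The authors' deposited table of their own comparison lists 660 genes, all with an unadjusted p of at most 0.04995 and with adjusted p-values of 0.999. It holds 0 of the 9 genes described here. The libraries that entered that comparison are not named in the sources used here.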

How the data were processed

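Per the labels' protocols, the 3 IL-36β and 3 untreated libraries were made with a strand-specific mRNA kit and read on a NextSeq instrument. The submitters' processing notes name GRCm38, featureCounts 1.50-p3, HISAT2 2.05, fastp, DESeq2 1.38.3 and StringTie, without roles or settings. The authors deposited FPKM for 54532 genes, and raw counts, p-values and adjusted p-values for 660 genes. A further 8 columns, of 4 libraries without a matching label, were not used. FPKM times gene length gave whole reads after 1 divisor per library, within 0.01 of a whole number in 100% of values, and these equalled the deposited counts in all 660 genes. Depth was 15180389 to 19544689 reads, and 1 FPKM at 1 kb is 15.4 to 20.3 reads. The deposited FPKM did not scale exactly with this depth. IL-36β replicate 3 had 18938592 reads and 18.2 reads per FPKM at 1 kb, and IL-36β replicate 1 had 15180389 and 15.5.

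Values were taken to log2(FPKM + 0.5) and tested two-sided with limma 3.58.1 in R 4.3.3, its prior following the mean level, with Benjamini-Hochberg adjustment over the 12618 genes that reached 0.5 FPKM in 3 or more libraries, and intervals are 95% confidence intervals. edgeR 4.0.16 and DESeq2 1.42.0 were run on the recovered reads as alternatives. The fits were tested on simulated data. Samples were grouped by title. Named genes were the 9 members, the genes of the wider list at an unadjusted p under 0.05 and its 3 most abundant, and the 3 genes most like Cldn5 and Cldn1 among those with a mean FPKM of at least 1, of which 1 is not reported here. Marker lists, the wider list and the members were chosen with earlier results of these data known. Other pseudocounts, filters, scalings, replicate blocks and leaving out each library were also tried. Libraries within a group gave a chi-square over its degrees of freedom between 10.1 and 37.2, above sampling noise, so none was taken as a duplicate.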

Additional observations from a re-analysis of the deposited data

How the results depend on the processing

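The number of genes called among all tested was 23. It was 0 without a filter, 15 on the TPM scale, 37 in edgeR, 260 in DESeq2 and 102 with the library set as a term, and it ranged from 2 to 8 when 1 library was left out. Of the 9 tight junction genes, 0 were called except in DESeq2, where 1 was (Cldn5), also 1 with the library set as a term (Cldn1 in place of Cldn5) and 0 to 1 when 1 library was left out, where 435 and 102 to 388 of all genes were called. Of the 31 other tight junction genes, 0 were called except 1 in DESeq2 (Amot). With a replicate block by title number 13 genes were called, and with a replicate block by library letter 78, none of them a tight junction gene of either list. The numbers in the titles were not used to pair libraries, since the deviations of same-numbered libraries from their group means correlated at 0.21, -0.14 and 0.21. The libraries sharing letter A or D correlated at 0.21 and 0.28, while IL-36β replicate 1 (A) correlated more with untreated replicate 2 (B), at 0.39. Since A and B libraries are of the same library set, these correlations cannot tell whether the letters pair the libraries. The letters were not used as pairs in the main fit.

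Cldn5, F11r, Cldn1 and Cldn12 kept their direction in every alternative tried, and Jam2 did except among the A and B libraries alone (log2 0.017). The TPM scale moved the median of all genes by -0.082 on the log2 scale, close to the move of Ocln, Marveld2 and Ybx3, so their sign turns on it reflect that shift. The cause of the other sign turns was not tested. Ocln had log2 fold changes of -0.013 with quantile normalization, -0.056 on the TPM scale, -0.028 with the letter block and -0.0094 to 0.071 when 1 library was left out. Tjp1 had 0.015 with the set as a term and -0.082 to 0.12 when 1 library was left out. Marveld2 had -0.048 on the TPM scale, and Jam3 had -0.072 to 0.046 when 1 library was left out. Ybx3 had -0.051 with quantile normalization, -0.0096 on the TPM scale and -0.0090 to 0.18 when 1 library was left out. Marveld2 rested on 64 to 90 reads per library and Cldn4 on 4 to 72. The log2 fold change of Cldn4 ranged from 0.53 to 1.84 over the alternatives.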
